A study of Mus musculus with 111 samples.

Results

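The 5 RNAs described here are the ones encoded at the start of the mouse mitochondrial map: mt-tRNA-Phe-GAA-1, mt-Rnr1, mt-tRNA-Val-TAC-1, mt-Rnr2 and mt-tRNA-Leu-TAA-1. They were taken by name from a read-count table of 1268 entries, of which 1042 were kept after second names and copies of entries were dropped, and all 5 were present in both. Levels were measured in libraries of 6 mouse sample types: sperm (19 libraries), testis (19), heart (19), liver (17), and both ends of the epididymis, the caput (19) and the cauda (18). Each tissue was sampled on 4 diets eaten for 6 months, with 4 or 5 libraries in each of the 24 groups. The control diet (AIN-93g) held 18% protein, and the low-protein diet held 10%, the mass being replaced by sucrose. The high-fat control diet drew 7.2% of its calories from fat and the high-fat diet 60%, although the label of the latter gives 16% as the usual share. The title of the series names the effect of diet on mitochondrial and cytosolic tRNA as its subject. The labels name no engineered allele in any group. The labels give no strain, age at sampling or pooling of animals and do not tie libraries to mice. P-values therefore reflect only how much these libraries varied, and part of that may be technical. Sequencing was by OTTR-seq, a method that joins adapters to the ends of an RNA by template jumping of a reverse transcriptase during cDNA synthesis.

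Mitochondrial DNA of mammals is copied into long precursors from each of its strands. The tRNAs lie between the longer genes, and cutting at their 5′ ends by RNase P and at their 3′ ends by ELAC2 releases the tRNAs, rRNAs and mRNAs from the precursor. mt-Rnr1 is the rRNA of the small subunit of the mitochondrial ribosome and mt-Rnr2 that of the large subunit. tRNA-Phe, tRNA-Val and tRNA-Leu (the one that reads UUR codons) each carry their amino acid to that ribosome, and tRNA-Val is also built into the large subunit of the human mitochondrial ribosome as a structural RNA. The factor MTERF1 binds inside the tRNA-Leu gene, just past mt-Rnr2.

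On GRCm38, with the GENCODE M21 annotation, all 5 genes lie on the plus strand of chromosome M and carry no intron. The gene of mt-tRNA-Phe-GAA-1 (mt-Tf) spans bases 1 to 68, mt-Rnr1 spans 70 to 1024, the gene of mt-tRNA-Val-TAC-1 (mt-Tv) spans 1025 to 1093, mt-Rnr2 spans 1094 to 2675, and the gene of mt-tRNA-Leu-TAA-1 (mt-Tl1) spans 2676 to 2750. A single base separates the first pair of genes, and 0 bases separate the others. The 3 tRNA sequences are shown because tRNA-Val stood so far above the other two, although all lie within 2750 bases. They are GENCODE transcript sequences, 5′ to 3′, with the anticodon in capitals.
mt-tRNA-Phe-GAA-1: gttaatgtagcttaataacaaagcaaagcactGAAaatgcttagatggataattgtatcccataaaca
mt-tRNA-Val-TAC-1: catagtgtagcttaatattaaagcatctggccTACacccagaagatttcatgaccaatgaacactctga
mt-tRNA-Leu-TAA-1: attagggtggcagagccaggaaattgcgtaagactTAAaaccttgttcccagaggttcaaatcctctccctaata
The tRNAs are 68, 69 and 75 bases long, and their GC content is 30.9%, 39.1% and 44%. Phe and Val are identical in 40 of 73 aligned columns (54.8%), with a longest shared run of 12 bases near the 5′ end, tgtagcttaata. Leu is identical to Phe in 55.1% and to Val in 47.4% of aligned columns, and shares runs of only 5 and 6 bases with them. The next sequence shows how tightly Val is set between the rRNAs: it joins the last 15 bases of mt-Rnr1, the tRNA in capitals and the first 15 bases of mt-Rnr2 (chrM:1010-1108, plus strand).
Junction of mt-Rnr1, mt-tRNA-Val-TAC-1 and mt-Rnr2: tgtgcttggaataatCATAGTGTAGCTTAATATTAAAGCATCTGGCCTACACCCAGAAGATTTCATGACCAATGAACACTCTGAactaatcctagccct

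Depth limits what these counts can show. Reads per library over the kept entries ran from 827 to 1467880, and 3 libraries held under 5000 (1 of high-fat liver and 2 of low-protein caput). Depth moved with diet in several tissues: heart libraries held 735211 to 1467880 reads on the control diet and 29211 to 470061 on the low-protein diet, and testis libraries held 117899 to 671134 on the control diet and 19530 to 43306 on the high-fat control diet. Caput libraries held 13726 to 85848 reads on the control diet and 912 to 16203 on the low-protein diet. Liver libraries held 77047 to 809087 on the control diet and 6279 to 22145 on the high-fat control diet. On the high-fat diet 1 liver library held 827 reads and the others 51432 to 274137. The part of depth in the differences described was not tested. Column names of liver and heart libraries carry separate series of serial numbers for the control and low-protein diets, and those of heart on the high-fat pair carry none. The labels do not say what they mark, so in these tissues diet and such a series cannot be told apart. Entries of piRNA precursors, RNAs of male germ cells, took 4.54% ± 3.79 (SD, n = 19) of reads in testis and at most 0.602% on average in any other tissue. In bulk tissue, fewer cells of a type and less RNA per cell cannot be told apart. The mouse nuclear genome holds copies of mitochondrial segments, and how reads matching both were counted is not given.

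Summed over all libraries, Val gave the most reads of the 5 RNAs. In sperm and cauda, however, mt-Rnr2 took a larger mean share of reads than Val (5.26% against 2.65%, and 3.73% against 2.34%). Val gave 4040052 reads in all, against 237999 for mt-Rnr2, 53871 for mt-Rnr1, 21918 for Phe and 15943 for Leu. It was 99.1% of the reads of the 3 tRNAs. Among the 22 mitochondrial tRNAs it ranked 1 by total reads, while Phe ranked 17 and Leu 18, and Val was the first of the 22 in 94 libraries. Per base of length, Val exceeded both Phe and Leu in every library. The ratio of Val to Phe per length, as a geometric mean over libraries, was 158, and in single libraries it ran from 23.7 to 3741. Val to Leu came to 202, with a range from 8.89 to 4677. Leu to Phe was 0.783, with single libraries from 0.0920 to 20.0, so neither of these tRNAs was above the other throughout.

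Among tissues, Val took the largest part of heart and liver reads. In RPM, the reads of an entry per 1000000 reads of the kept entries, its lowest, median and highest heart libraries were at 64449, 267810 and 626500, a mean of 319170 ± 154190 (SD, n = 19). Liver libraries ran from 71590 through a median of 250650 to 443990 (mean 243000 ± 117040, n = 17). The ranges of heart and liver overlapped. Caput followed with 71272, 117750 and 204480 RPM (mean 131450 ± 45446, n = 19), and testis with 31917, 55782 and 96088 (mean 57622 ± 17565, n = 19). Sperm had 5227, 13067 and 92976 RPM (mean 26503 ± 23530, n = 19) and cauda 8875, 22816 and 70226 (mean 23412 ± 13754, n = 18). Every liver and caput library lay above every cauda library.

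Phe and Leu varied less across tissues and stayed far below it. The mean of Phe was 1098 ± 622 RPM in liver and 996 ± 520 in heart. It was 564 ± 380 in testis, 503 ± 415 for caput libraries, 393 ± 327 in sperm and 270 ± 209 in cauda. Leu was highest in heart at 958 ± 421, followed by liver at 592 ± 491, testis at 587 ± 355, sperm at 538 ± 389, caput at 241 ± 283 and cauda at 220 ± 102. Neighbours in both orders overlapped. Phe was at 0 reads in 2 libraries and Leu in 6. Those libraries held from 827 to 10938 reads, and a count of 0 there still allows 274 to 3628 RPM (3 reads per library, counting error only), so Phe and Leu were not detectable there rather than absent.

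In RPM, the rRNAs were ordered nearly the other way round. mt-Rnr2 had a mean of 52616 ± 28257 RPM in sperm, with lowest, median and highest libraries at 6263, 45122 and 122230. In cauda it had 37335 ± 28441 (2662, 29596 and 84783) and in testis 22167 ± 15968 (2126, 24616 and 55766). Heart stood at 6903 ± 6585, liver at 6807 ± 5187 and caput at 2658 ± 1488, and the highest caput library reached only 6640. mt-Rnr1 was at 9646 ± 7403 in cauda, 8357 ± 4838 in sperm and 7150 ± 5015 in testis, against 1868 ± 1563 in liver, 1304 ± 1115 in heart and 615 ± 379 in caput. The rRNAs are 955 and 1582 bases long and the libraries were size-selected on gels per the labels, so their reads count pieces of these RNAs.

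**Figure D1:**
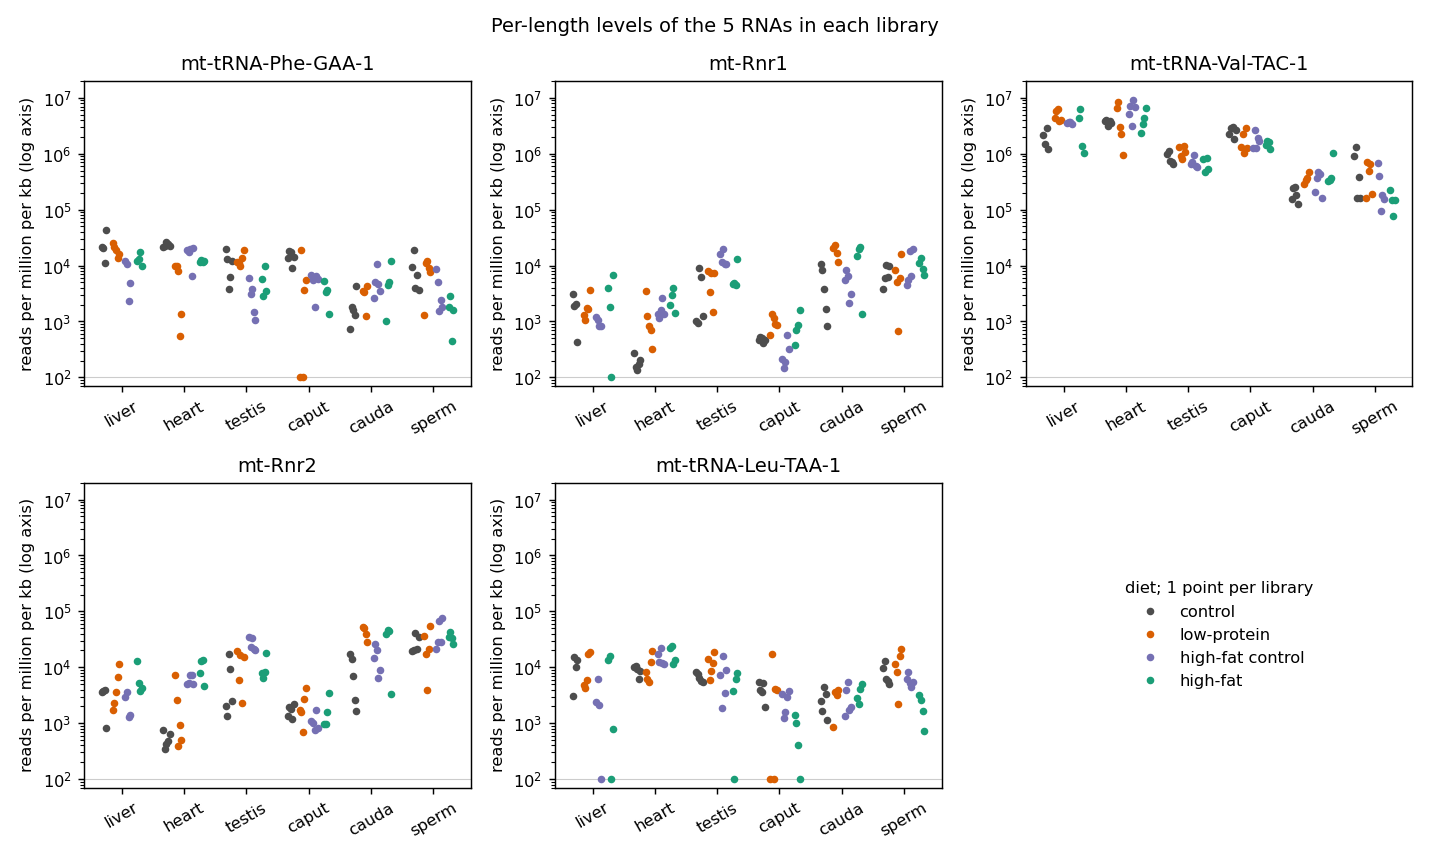
RPM per kilobase (log axis) of the 5 RNAs in each library, grouped by tissue and coloured by diet, with values under 100, including 0 reads, drawn at 100. mt-tRNA-Val-TAC-1 lies above the other tRNAs in every library and falls from heart and liver to cauda and sperm, while mt-Rnr1 and mt-Rnr2 are on average highest in testis, cauda and sperm.

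The balance of tRNA to rRNA within a library does not depend on how libraries are scaled to each other. It was taken as the log2 ratio, per length, of the summed reads of the 3 tRNAs to those of the rRNAs, with 0.5 reads added, and since Val supplied at least 86.1% of the tRNA reads in any library it is close to a ratio of Val to rRNA. The geometric mean was 756 in heart, 500 in caput and 366 in liver, then 32.5 in testis, 8.14 in cauda and 4.59 in sperm. As log2 values these were 9.56 ± 1.64 (SD, n = 19), 8.97 ± 0.81 (n = 19), 8.51 ± 1.20 (n = 17), 5.02 ± 1.60 (n = 19), 3.03 ± 1.55 (n = 18) and 2.20 ± 1.88 (n = 19). Liver, heart and caput stood apart from testis, cauda and sperm in every pair that crosses these sets, each with an adjusted p of 4e-05 (permutation test with 100000 resamples, two-sided, Benjamini-Hochberg over 120 tests of 8 measures in 15 pairs of tissues), which is the smallest that p can be in this family. Testis lay above cauda by 2.0 on the log2 scale (adjusted p = 0.000867) and above sperm by 2.82 (adjusted p = 0.000114). The pairs liver and heart (adjusted p = 0.0573), liver and caput (0.251), heart and caput (0.221) and cauda and sperm (0.212) did not pass the permutation test. The libraries of sperm did not overlap those of liver, heart or caput, and those of cauda did not overlap those of caput. The means of the 4 diets within a tissue ran from 7.43 to 9.43 in liver, 7.63 to 11.61 in heart, 8.31 to 9.51 in caput, 0.92 to 3.19 in sperm, 1.86 to 3.63 in cauda and 3.44 to 6.32 in testis. Every diet mean of testis, cauda and sperm thus lay below every diet mean of the other tissues.

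The rRNAs also differed in proportion to each other. Per length, mt-Rnr2 exceeded mt-Rnr1 in 108 libraries. The geometric mean ratio of mt-Rnr1 to mt-Rnr2 was 0.554 in testis, 0.462 in liver, 0.436 in cauda, 0.379 in heart and 0.376 in caput, and 0.254 in sperm. Sperm libraries ran only from 0.182 to 0.317, below every cauda library (lowest 0.323) and every testis library (lowest 0.414). On the log2 scale sperm was lower than testis by 1.12 (adjusted p = 4e-05), than liver by 0.86 (6.49e-05), than cauda by 0.78 (4e-05), than heart by 0.58 (0.00128) and than caput by 0.57 (0.00581) by the permutation test. In all, 8 of 15 pairs passed for this ratio.

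Val stood above Phe by 362 in heart, 284 in caput, 212 in liver, 121 in testis, 93.3 in cauda and 64.6 in sperm (geometric mean ratios per length). It stood above Leu by 642 in caput, 509 in liver, 347 in heart, 124 in testis, 109 in cauda and 47.7 in sperm. Heart exceeded testis, cauda and sperm in the ratio of Val to Phe by 1.58, 1.96 and 2.49 on the log2 scale (adjusted p = 0.00016, 4e-05 and 4e-05, permutation test). Liver and heart did not pass that test (adjusted p = 0.115). Over the 8 measures, 78 of 120 tests between tissues passed.

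**Figure D2:**
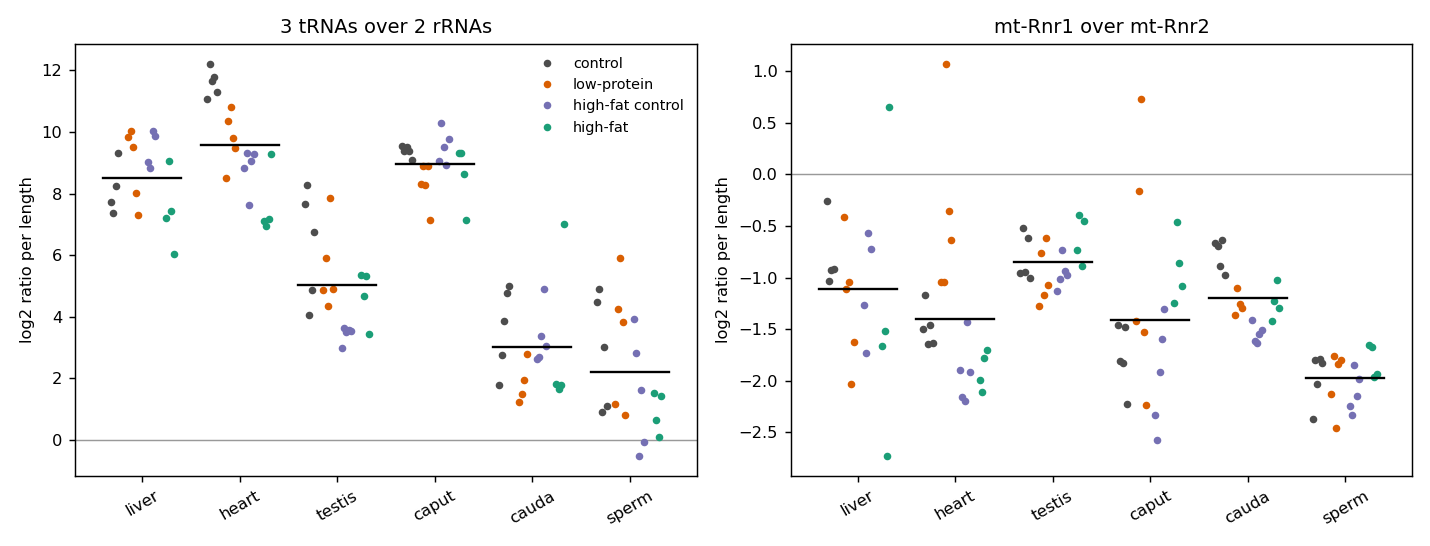
Log2 ratio per length of the 3 tRNAs to the rRNAs, and of mt-Rnr1 to mt-Rnr2, in each library by tissue, with the tissue mean as a black bar. The first ratio has means from 9.56 in heart to 2.20 in sperm, and the second is lowest in sperm, at -1.98.

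Fitted levels of Val fell from heart through liver and caput to testis, cauda and sperm. In the edgeR quasi-likelihood fit over all libraries, calls between tissues needed an adjusted p (Benjamini-Hochberg) under 0.05 and at least a 2-fold difference, and the 5 RNAs passed in 51 of 75 tests. That share is to be read against the share of all 347 tested entries called in each pair, which was high: 25.1% for liver and heart, 58.8% for liver and testis, 23.9% for liver and caput, 59.9% for liver and cauda, 74.4% for liver and sperm, 61.4% for heart and testis, 44.7% for heart and caput, 55% for heart and cauda, 71.2% for heart and sperm, 69.2% for testis and caput, 72.3% for testis and cauda, 77.2% for testis and sperm, 62% for caput and cauda, 76.4% for caput and sperm, and 46.7% for cauda and sperm. For Val, heart exceeded liver (log2 difference of liver minus heart -2.0, adjusted p = 5.23e-06), liver exceeded caput (2.01, 4.97e-06) and caput exceeded testis (testis minus caput -1.58, 1.81e-05). With total counts in place of composition factors the liver and heart difference was -0.42 (adjusted p = 0.189) and that of liver and caput 0.86 (0.0151), under 2-fold. With libraries of the 2 control diets alone, liver and caput did not pass (0.51, 0.314). Val did not pass between testis and sperm (0.52, 0.138), testis and cauda (0.40, 0.273) or cauda and sperm (0.12, 0.785). For mt-Rnr2, cauda and sperm did not pass (-0.59, 0.242), and cauda exceeded testis (testis minus cauda -1.48, 0.00129), a call lost with DESeq2 (-0.87, 0.0642). The direction of mt-Rnr2 in heart depended on scaling. Heart minus testis was 1.09 (adjusted p = 0.0168) with composition factors from all kept entries, -0.53 (0.237) with DESeq2 and -1.94 with total counts. With composition factors, 0 of the 5 RNAs were called lower in heart than in cauda or sperm, or in liver than in testis. The lower rRNA values of heart in RPM were thus not called in that fit. In liver, 2 of the 5 were called lower than in cauda, and 2 lower than in sperm.

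Within the pool of mitochondrial tRNAs, Val had the highest mean share in liver, 53.5% ± 9.22 (SD, n = 17), caput, 46.9% ± 11 (n = 19), heart, 43.9% ± 16.4 (n = 19), testis, 40.1% ± 5.47 (n = 19), and cauda, 24.7% ± 3.79 (n = 18). In sperm it held 20.6% ± 5.88 (n = 19) and came after mt-tRNA-His-GTG-1 at 30.5% ± 13.2, a tRNA named after its values were seen. The pool holds mt-tRNA-Arg-TCG-1 and mt-tRNA-Ser-GCT-1, whose second names list other counts; with those counts the share of Val ran from 21% in sperm to 55% in liver, an alternative chosen after seeing the data. Caput and sperm did not overlap in the share of Val (log2 difference 1.21, adjusted p = 4e-05, permutation test). Phe held a mean of 0.137% in heart to 0.362% in testis, and Leu 0.0759% in caput to 0.545% in sperm. In liver and heart, mitochondrial tRNAs together took 45.8% ± 20.9 and 71.0% ± 13.4 of reads, against 29.4% ± 12.2 in caput, 14.5% ± 4.33 in testis, 11.8% ± 8.12 in sperm and 9.5% ± 5.15 in cauda.

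**Figure D3:**
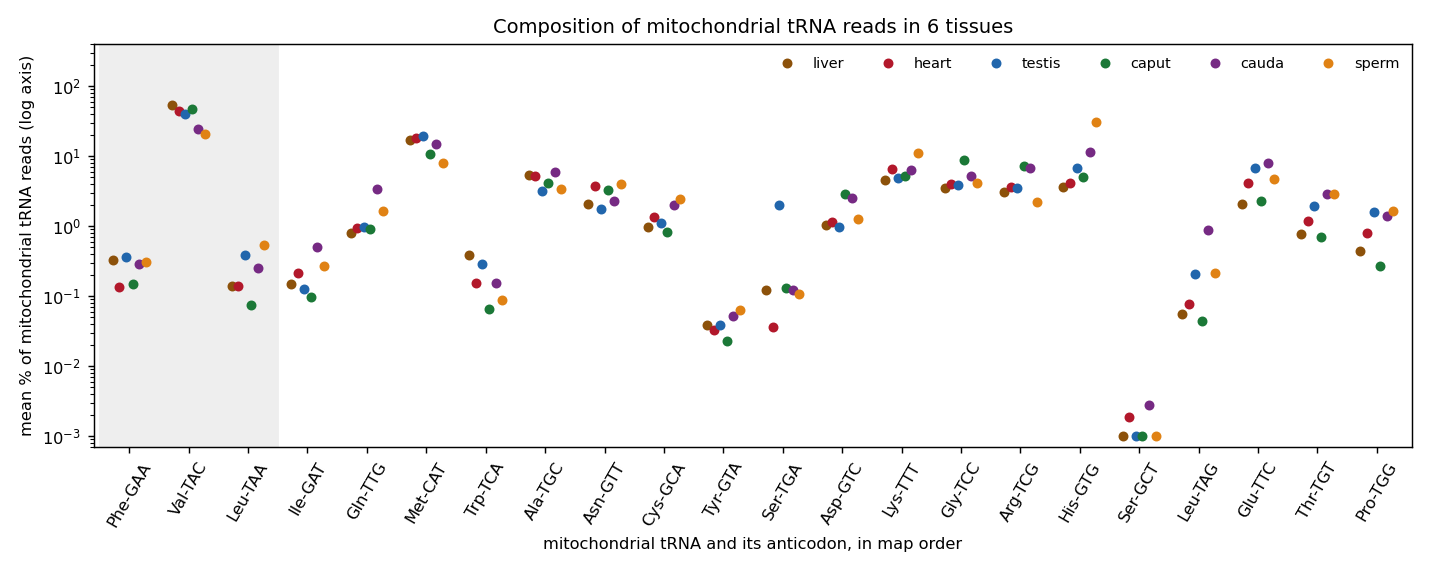
Mean percentage of mitochondrial tRNA reads (log axis) taken by each of the 22 mitochondrial tRNAs, in map order, for each tissue, with the 3 tRNAs of the unit shaded and values under 0.001 drawn at 0.001. Val lies between 20.6% and 53.5% while Phe and Leu, on either side of it, stay under 1%.

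Diet was compared within each tissue, in 3 contrasts: low-protein minus control, high-fat minus high-fat control, and the high-fat control diet minus the control diet. The last contrast shares its control libraries with the first and its high-fat control libraries with the second. Calls were made at an adjusted p under 0.05 by edgeR's quasi-likelihood test with Benjamini-Hochberg adjustment, on log2 fold changes fitted with composition factors. Over the 6 tissues, 4 of 30 tests of the 5 RNAs passed on the low-protein diet, 1 of 30 on the high-fat diet and 7 of 30 between the control diets. Leu was not tested in caput, where its counts were below the low-count filter, so those totals hold 29 fitted values each. Over the same fits, the share of all tested entries that passed was 21.9%, 0.696% and 30.3% in the same order. The share of all entries whose groups did not overlap was not counted. Where groups are said not to overlap, this only describes the libraries of the RNA named.

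In heart, Phe was lower and both rRNAs were higher on the low-protein diet than on the control diet. Of all tested entries 75.2% were called in that contrast, so a call says little about these RNAs alone. Phe was at 1464, 1537, 1794, 1655 and 1515 RPM in the control hearts and at 668, 666, 548, 37.2 and 93.6 in the low-protein hearts. The groups did not overlap. The log2 fold change was -2.12 ± 0.51 (SE, adjusted p = 7.54e-05), and with only these diets in the fit it was -1.19 (adjusted p = 0.0532).
For mt-Rnr1 the control hearts had 257, 147, 132, 163 and 193 RPM and the low-protein hearts 3327, 1204, 787, 678 and 306. All the low-protein values lay above the control values, and the log2 fold change was 2.74 ± 0.53 (adjusted p = 6.04e-07). mt-Rnr2 had 1207, 550, 682, 744 and 995 RPM on the control diet and 11396, 4123, 616, 1440 and 791 on the low-protein diet, with overlap. Its log2 fold change was 2.14 ± 0.53 (adjusted p = 9.41e-05), and 1.37 (0.0693) when every entry of the table was kept. Val, at 0.16 ± 0.49 (adjusted p = 0.776), and Leu, at 0.04 ± 0.49 (0.946), did not pass.

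The rest of the mitochondrial tRNAs in the same contrast are given by strand. Of the 11 other tRNAs on the heavy strand, 10 were tested, of which 8 were lower and 1 was higher. Their median change was -2.42 on the log2 scale. The largest changes were -5.17 for mt-tRNA-Leu-TAG-1 and -4.65 for mt-tRNA-Thr-TGT-1. Of the 8 light-strand tRNAs, 6 were lower and 0 higher, with a median of -1.62, led by mt-tRNA-Tyr-GTA-1 at -4.03 and mt-tRNA-Cys-GCA-1 at -3.41. The median of all tested entries was -0.29.

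On the high-fat control diet, hearts also had more rRNA than on the control diet. The share of entries called was 57.4%. mt-Rnr1 stood at 1306, 1101, 1511, 2562 and 1273 RPM and mt-Rnr2 at 8073, 8152, 11494, 11572 and 7978, all above the control values given above. The log2 fold changes were 2.99 ± 0.53 (adjusted p = 1.78e-07) and 3.43 ± 0.55 (1.01e-08). Phe, at -0.43 ± 0.49 (0.458), Val, at 0.76 ± 0.49 (0.171), and Leu, at 0.69 ± 0.49 (0.216), did not pass. On the heavy strand 2 of 10 other tRNAs were lower (median -0.42, mt-tRNA-Thr-TGT-1 at -2.45 and mt-tRNA-Lys-TTT-1 at -1.80), and on the light strand 5 of 8 (median -1.24, mt-tRNA-Tyr-GTA-1 at -2.33 and mt-tRNA-Pro-TGG-1 at -1.84), against a median of -0.10 over all entries. Between the high-fat and high-fat control hearts 1.24% of entries were called and none of these 5, with log2 fold changes of 0.75 ± 0.52 for mt-Rnr1 (0.687) and 0.71 ± 0.53 for mt-Rnr2 (0.768).

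The ratio of the 3 tRNAs to the rRNAs in heart, which uses no scaling between libraries, gave a log2 mean of 11.61 ± 0.44 (SD, n = 5) on the control diet, 9.80 ± 0.87 (n = 5) on the low-protein diet, 8.82 ± 0.69 (n = 5) on the high-fat control diet and 7.63 ± 1.11 (n = 4) on the high-fat diet. The control diet did not overlap the low-protein or the high-fat control diet, and each of these differences had an exact permutation p of 0.00794, the smallest that 5 against 5 allows, and an adjusted p of 0.0762. Across 8 measures, 6 tissues and 3 contrasts, 0 of 144 exact permutation tests of diet passed after adjustment, while 37 had an unadjusted p under 0.05. The smallest exact p was 0.00794 for 5 against 5 or 4 against 5 libraries and 0.0286 for 4 against 4. The smallest adjusted p was 0.0762. A difference at the floor of the exact p could not pass alone among 144 tests.

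In testis, Phe and Val were lower and mt-Rnr2 was higher on the high-fat control diet than on the control diet, in a contrast where 46.8% of entries were called. Phe stood at 1333, 895, 263, 420 and 827 RPM on the control diet and at 416, 214, 263, 102 and 71.9 on the high-fat control diet, with overlap (log2 fold change -3.41 ± 0.65, adjusted p = 0.00088). Val stood at 67120, 76852, 50450, 49455 and 45364 RPM against 45675, 49132, 65330, 42294 and 40621, with overlap. Its log2 fold change of -1.73 ± 0.48 (adjusted p = 0.00656) rested on the scaling: it was -0.24 (0.530) with total counts and -0.01 (0.988) relative to the mitochondrial tRNA reads.
mt-Rnr2 was at 3148, 2126, 27897, 14973 and 3986 RPM against 55766, 36520, 51849, 32924 and 32808, with no overlap. Its log2 fold change was 1.18 ± 0.49 (adjusted p = 0.0473), a call lost when any of 6 single libraries was left out (control 1, 2, 4 or 5, or high-fat control 1 or 3, adjusted p from 0.0580 to 0.152). mt-Rnr1, whose groups did not overlap either, had 1.05 ± 0.45 (0.0561), and passed with total counts (1.89, 0.0122). The tRNA to rRNA ratio was lower by 2.88 on the log2 scale without overlap (exact permutation p = 0.00794, adjusted p = 0.0762). Of the other tRNAs, 9 of 10 tested on the heavy strand were lower. The median of the 10 was -2.73, with mt-tRNA-Asp-GTC-1 at -4.05 and mt-tRNA-Lys-TTT-1 at -3.79. On the light strand 6 of 8 were lower. The median of the 8 was -2.03, with mt-tRNA-Tyr-GTA-1 at -3.30 and mt-tRNA-Asn-GTT-1 at -2.42. Over all entries the median was 0.10. These values also use composition factors. The share of Val in the mitochondrial tRNA reads differed by only -0.0069 on the log2 scale. How far the list medians rest on the scaling was not tested.

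In caput, Phe was lower on both the low-protein and the high-fat control diet than on the control diet, in contrasts that called 41.4% and 23.4% of entries. The control libraries had 944, 1239, 1175, 610 and 957 RPM. The low-protein libraries had 0, 1275, 0, 247 and 373, of which the first 3 held 5438, 2353 and 912 reads, so that 1275 RPM was 3 reads. The log2 fold change was -1.71 ± 0.54 (adjusted p = 0.00893), a call lost without control 1 (-1.13, 0.0992) or low-protein 4 (-1.42, 0.0765) with only these diets in the fit (-1.21, 0.0818) and relative to the mitochondrial tRNA reads (-0.64, 0.308).
The high-fat control libraries had 464, 373, 121, 447 and 396 RPM, all below the control libraries. The log2 fold change was -1.15 ± 0.38 (adjusted p = 0.0225), a call lost without control 2 (-1.13, 0.0514) or high-fat control 3 (-0.79, 0.115) and relative to the mitochondrial tRNA reads (-0.56, 0.221). On the low-protein diet, 5 of 8 tested heavy-strand tRNAs were lower (median -1.73, mt-tRNA-Asp-GTC-1 at -3.38 and mt-tRNA-Gly-TCC-1 at -2.66) and 4 of 7 light-strand tRNAs (median -1.24, mt-tRNA-Ser-TGA-1 at -2.21 and mt-tRNA-Cys-GCA-1 at -1.51), against -0.44 over all entries. On the high-fat control diet 1 light-strand tRNA was lower, mt-tRNA-Ser-TGA-1, by 1.5 on the log2 scale.
Between the high-fat and high-fat control diets, 0.69% of entries were called and none of these RNAs. mt-Rnr1 had 365, 662, 838 and 1554 RPM on the high-fat diet and 205, 140, 182, 537 and 308 on its control, with a log2 fold change of 1.39 ± 0.41 (adjusted p = 0.0843). With the replicate number as a block in edgeR its log2 fold change was 1.90 (adjusted p = 0.00405), and DESeq2 gave 1.70 (0.0173). The labels name no such pairs. This contrast was taken as paired because its same-numbered libraries correlated at 0.116 to 0.259 in these same counts. The blocked value is therefore not independent of that choice. The share of all entries called with the block or with DESeq2 is not given here, so neither call is shown to be particular to mt-Rnr1.

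In liver, 2 calls were made, and both were lost when single libraries were left out. Phe was at 1467, 1377, 749 and 2890 RPM on the control diet and 813, 733, 159 and 334 on the high-fat control diet, where 25.9% of entries were called. The log2 fold change was -2.13 ± 0.68 (adjusted p = 0.0232). It was not called without control 4 (-1.45, 0.130) or without high-fat control 2, 3 or 4 (adjusted p 0.0526, 0.0950 and 0.0954), nor with total counts (-1.58, 0.0947). On the high-fat diet, where 2.93% of entries were called against its control, mt-Rnr1 had 3863, 1755, 0 and 6436 RPM and the high-fat control livers 1129, 999, 796 and 778.
The log2 fold change of mt-Rnr1 was 3.37 ± 0.89 (adjusted p = 0.0462). The high-fat library with 0 reads of mt-Rnr1 held 827 reads in all. Without it Phe, mt-Rnr1, mt-Rnr2 and Leu were all called, Phe at 2.17 (0.0420), mt-Rnr2 at 3.26 (0.0169) and Leu at 3.41 (0.0390). The share of all tested entries called was then 9.24%. The remaining high-fat livers held 51432 to 274137 reads and the high-fat control livers 6279 to 22145. Depth and diet thus cannot be told apart in this comparison, and Leu was at 0 reads in high-fat control 4. Without high-fat 4, or without any 1 of the high-fat control livers, mt-Rnr1 was not called (adjusted p from 0.0808 to 0.156), nor with any other scaling tried (log2 fold change from 1.84 to 3.10, adjusted p from 0.0735 to 0.179). The low-protein livers gave 0 calls among these RNAs where 35.6% of entries were called, with Val at 1.60 ± 0.77 (unadjusted p = 0.048, adjusted p = 0.108, edgeR) and not overlapping in RPM. Val passed without the libraries under 5000 reads (1.61, 0.0278), where 37% of entries did. On the high-fat control diet mt-tRNA-Trp-TCA-1 was the single other mitochondrial tRNA on the heavy strand that was lower, at -3.59.

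Cauda and sperm gave 0 calls in any contrast, for these RNAs and for all entries (0% called), and testis gave 0 (0%) on the low-protein and high-fat diets by edgeR. At an unadjusted p under 0.05, 45, 18 and 21 of 218 entries stood out in cauda in the order low-protein, high-fat and between the controls, 0, 6 and 21 of 180 in sperm, and 39 and 19 of 447 in testis. mt-Rnr2 was the only one of the 5 among them in cauda. It had 26980, 21798, 11034, 4073 and 2662 RPM on the control diet and 84783, 80565, 62819 and 45707 on the low-protein diet, a gap with no overlap, and a log2 fold change of 1.93 ± 0.69 (unadjusted p = 0.0107, adjusted p = 0.130). DESeq2 gave 2.04 with an adjusted p of 0.0427, and the share of all entries it called is not given here. mt-Rnr1 and Val also did not overlap, with adjusted p of 0.264 and 0.311 by edgeR. How many of the 218 entries did not overlap was not counted, so these gaps are not shown to be particular to these RNAs. In testis on the high-fat diet mt-Rnr2 had an unadjusted p of 0.0188 (log2 fold change -1.32 ± 0.53, adjusted p = 0.713), and in sperm none of the 5 had an unadjusted p under 0.05.

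In cauda the log2 ratio of mt-Rnr1 to mt-Rnr2 was highest on the control diet. Its mean was -0.77 ± 0.15 (SD, n = 5) on the control diet, -1.25 ± 0.11 (n = 4) on the low-protein diet, -1.54 ± 0.09 (n = 5) on the high-fat control diet and -1.24 ± 0.17 (n = 4) on the high-fat diet. The control libraries did not overlap the low-protein or the high-fat control libraries (exact permutation p = 0.00794 each, adjusted p = 0.0762).

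In the 3 contrasts taken as paired (caput and cauda high-fat against high-fat control, and sperm between the control diets), ratios were also compared within same-numbered pairs. This alternative was chosen after seeing the data. The labels do not pair libraries across diets, and the pairing was taken from correlations in these same counts. Libraries that correlated best with their own number were 6 of 8 in caput, 2 of 8 in cauda and 6 of 10 in sperm. The exact sign-flip permutation test within pairs cannot go below 0.125 with 4 pairs or 0.0625 with 5, so it cannot pass. The ratio of the 3 tRNAs to the rRNAs in sperm was lower on the high-fat control diet than on the control diet in 5 of 5 pairs, with log2 differences from -2.08 to -0.55 (mean -1.33 ± 0.55, SD, exact permutation p = 0.0625, and 0.262 without pairing). The ratio of mt-Rnr1 to mt-Rnr2 in caput was higher on the high-fat diet in 4 of 4 pairs (mean log2 difference 1.19 ± 0.67, SD, exact permutation p = 0.125, and 0.0159 without pairing).

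**Figure D4:**
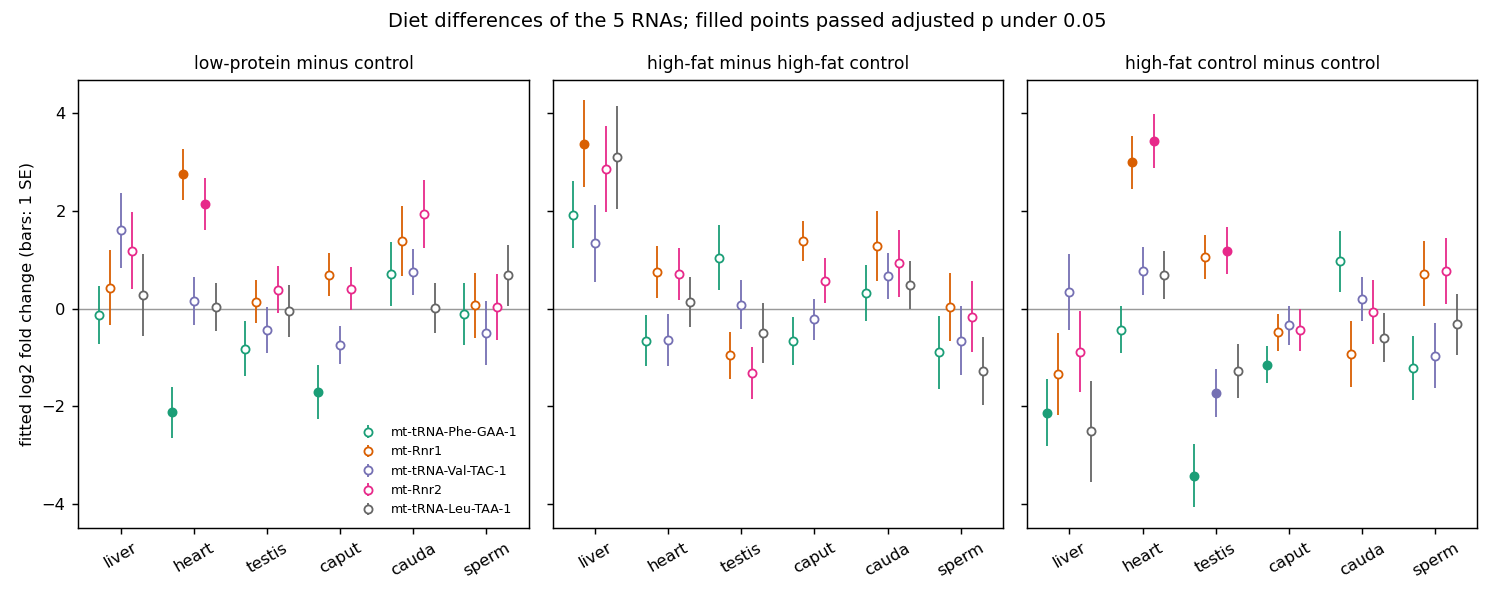
Fitted log2 fold change with 1 standard error of each RNA in each tissue, in the 3 diet contrasts, with filled points for an adjusted p under 0.05. Filled points number 4 on the low-protein diet, 1 on the high-fat diet and 7 between the control diets, and none is in cauda or sperm, where 0% of all tested entries were called. Over all tissues 21.9%, 0.696% and 30.3% of tested entries were called in the same contrasts.

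Whether a diet difference varied among tissues was tested by the interaction of tissue and diet over all 6 tissues. For the low-protein diet Phe passed (adjusted p = 0.0403, edgeR quasi-likelihood), where 35.9% of entries did, and it did not pass with DESeq2-type size factors in edgeR (0.125). For the high-fat diet mt-Rnr1 (0.0205), mt-Rnr2 (0.0183) and Leu (0.0126) passed, where 3.17% of entries did. With total counts these were 0.0654, 0.0610 and 0.0722, so none of the 3 passed.

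The 24 group means of log2(RPM + 1) were also compared, a description in which points share libraries and depth. mt-Rnr1 and mt-Rnr2 moved together (Pearson 0.930), and Val moved against them (-0.731 with mt-Rnr1 and -0.713 with mt-Rnr2). RPM are parts of a fixed total, of which Val took up to 62.7% in a library, so a high share of Val leaves less for the rRNAs. How much of the negative values comes from this was not tested. Phe had 0.579 with Val and 0.580 with Leu. Among 342 other entries, the 3 most like Val were mt-tRNA-Met-CAT-1 (0.923), mt-tRNA-Ala-TGC-1 (0.900) and mt-tRNA-Arg-TCG-1 (0.790). The last is uncertain, since its second name lists 25789 reads against 468611 and gave 0.744. Those most like Phe were mt-tRNA-Tyr-GTA-1 (0.758), mt-tRNA-Lys-TTT-1 (0.706) and mt-tRNA-Ile-GAT-1 (0.603), and those most like Leu were mt-tRNA-Pro-TGG-1 (0.703), mt-tRNA-Tyr-GTA-1 (0.649) and mt-tRNA-Ile-GAT-1 (0.601). For the rRNAs the leading entries were not mitochondrial: the piRNA precursor entry pi-Lpp.2 (0.882), the snoRNA Gm26165 (0.871) and the snRNA Gm25541 (0.867) for mt-Rnr1, and the miscellaneous RNAs Gm26035 (0.869) and Gm24447 (0.864) and Gm25541 (0.844) for mt-Rnr2.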

How the data were processed

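Total RNA of all libraries was treated with polynucleotide kinase, copied by OTTR-seq and size-selected as cDNA on gels, per the labels' protocols. The authors deposited 1 table of raw read counts per entry. Its column names all end in the same code, which the labels do not explain and which was not used. Whether it marks a selection of reads is not known. The submitters' processing notes name cutadapt, DESeq2 and mm10, without versions or roles. The aligner (not given in the sources used here) and the rule for reads that match several entries are unknown. Groups were taken from the sample labels. Dropped by name were 22 second names of mitochondrial tRNAs and 55 copies of 5S rRNA, and 149 others were dropped as listing nearly the same reads as a kept entry, which left 1042 of 1268 entries and 51.1% of the summed counts. For Phe, Val and Leu both names differed by 0.379%, 0.121% and 1.10% of reads, and 20 of the 22 stayed within 1.10%. The remaining pair is uncertain in level: mt-tRNA-Ser-GCT-1 has 140 reads but 386 as mt-Ts2, while mt-tRNA-Arg-TCG-1 has 468611 but 25789 as mt-Tr. RPM is reads per 1000000 reads of the kept entries.

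Counts were fitted with edgeR 4.0.16 in R 4.3.3 (TMM factors, filterByExpr, robust quasi-likelihood), 1 fit per tissue over 4 diets, 1 fit over all tissues with diet as a term, and 1 fit per diet pair for the interaction, with Benjamini-Hochberg adjustment over all tested entries. Ratios used 0.5 added reads, exact permutation tests for diets and 100000 resamples for tissues, two-sided (scipy 1.17.1). Floors for RNAs without reads cover counting error only. Values after ± are an SD or an SE and reflect variation between libraries. Alternatives included DESeq2 1.42.0, other scalings, other filters and left-out libraries. The scripts were tested on simulated data. The 5 RNAs are named in every comparison; other mitochondrial tRNAs are given as 2 strand lists, from which at most the 2 largest changes in a contrast are named, and the 3 entries most like each RNA are named by Pearson correlation. The members and lists were chosen with earlier results of these data known. Replicate numbers in the titles were checked for pairing by the correlation of deviations from group means: 43 of 81 same-numbered pairs were over 0.1, and every pair was in 3 of 18 contrasts (caput and cauda high-fat against high-fat control, and sperm between the control diets), which were taken as paired. In 11 libraries (4 of control liver, 3 of high-fat control liver and 4 of low-protein cauda), none in those contrasts, the title's number differs from that in the library name.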

Additional observations from a re-analysis of the deposited data

Results flagged for a closer look

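Among 120 combinations of an RNA and a group, 11 held a library whose gap to its nearest neighbour was above Dixon's limit for the group's size, where chance gives about 5%. In liver, mt-Rnr2 was lowest in control replicate 4 (1279 RPM, next 5828) and highest in high-fat replicate 1 (20326, next 8356), and mt-Rnr1 was highest in low-protein replicate 5 (3465, next 1652). In heart on the high-fat control diet, replicate 4, with 11320 reads, was lowest for Phe (442 RPM, 5 reads) and highest for mt-Rnr1 (2562 RPM, 29 reads). In testis on the high-fat diet, replicate 4 was highest for both mt-Rnr1 (12667 RPM, next 4743) and mt-Rnr2 (28790, next 13138). In caput, Leu was highest in low-protein replicate 2 (1275 RPM, 3 reads of 2353), and Phe was lowest in high-fat control replicate 3 (121 RPM, 4 reads). In cauda, Phe was highest in high-fat control replicate 3 (740 RPM, 9 reads), and Val was highest in high-fat replicate 4 (70226 RPM, 44136 reads, next 25052).

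By the interaction test (edgeR quasi-likelihood, adjusted p) the diet difference varied among tissues for Phe on the low-protein diet (0.0403). On the high-fat diet it did so for mt-Rnr1 (0.0205), mt-Rnr2 (0.0183) and Leu (0.0126). Of all entries, 35.9% and 3.17% passed in the same tests. With DESeq2-type size factors in that test Phe did not pass (adjusted p = 0.125). With total counts mt-Rnr1, mt-Rnr2 and Leu did not pass (adjusted p = 0.0654, 0.0610 and 0.0722).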

How the results depend on the processing

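Between tissues, 51 calls became 47 to 57 under the alternatives tried, and ratio calls stayed at 78 or 79. These totals hide changes in which tests passed. With 5 added reads, mt-Rnr1 to mt-Rnr2 (adjusted p = 0.256, permutation test) and the share of Phe (0.0871) did not pass between testis and caput. Leu to Phe between liver and heart (0.0618) and the share of Phe between caput and cauda (0.375) did not pass either. Further ratio calls were lost with 0 added reads or without libraries under 5000 reads. Diet ratios gave 0 calls in every setting, also with the replicate block. The exact permutation p cannot go below 0.00794, which cannot pass alone among 144 tests, so this count says little about diet. Calls on the low-protein diet numbered 4, and 3 to 6 under alternatives (4 with any replicate left out, of which 3 were the same without control 1 or low-protein 4, where Phe in caput was lost). Between the control diets 7 calls became 12 with DESeq2 and 5 to 10 with a replicate left out. On the high-fat diet 1 call became 2 with only the compared diets, 3 with DESeq2 and 0 without the low-count filter. It became 4 without libraries under 5000 reads and 0 to 4 with a replicate left out. Without those shallow libraries the share of all entries called in high-fat liver went from 2.93% to 9.24%. For the other refits here that share is not given. A gain among these RNAs can thus not be told from a general gain in calls. The interaction calls, with alternatives chosen after seeing the data, went from 3 to 0 with total counts on the high-fat diet, and on the low-protein diet from 1 to 2 with RLE factors, 2 with total counts and 3 without libraries under 5000 reads. With the replicate block, calls were 6 (low-protein), 1 (high-fat), 8 (between the control diets) and 49 (tissues); 66 of 162 libraries correlated best with their own number, and in 0 contrasts all did. In contrasts not taken as paired, of which those of liver and low-protein cauda join some libraries whose library names carry different numbers, the block did not call mt-Rnr1 in high-fat liver (adjusted p = 0.226) or mt-Rnr2 in high-fat control testis (0.0752), and it called mt-Rnr1 (1.87) and mt-Rnr2 (2.42) in cauda on the low-protein diet, and in the cauda and sperm contrasts taken as paired it changed no call.

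Directions turned as follows on the log2 scale. For mt-Rnr2, heart minus testis was -0.53 with DESeq2, -0.53 with RLE factors, -0.036 with all entries and -1.94 with total counts, and liver minus heart was 0.23 with total counts. For Leu, liver minus sperm was -0.024 with DESeq2 and -0.036 with RLE factors. For Phe, liver minus heart was 0.070 with total counts. With 5 added reads, heart minus caput was -0.46 for the share of Leu and 0.28 for Val to Leu. The cause was not tested. Total counts moved the median of all entries by -2.96 to 1.02 between tissues and by -1.42 to 1.02 between diets. Depth limits Phe and Leu most: in libraries of 827 to 10938 reads they were at 0 reads in places.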
